A study of Homo sapiens with 6 samples.

Results

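Heat shock proteins and J-domain chaperones were taken from the gene table as the protein-coding genes whose symbol starts with HSP90, HSPA, HSPB, DNAJA, DNAJB, DNAJC or HSF and a number, together with HSPD1, HSPE1 and HSPH1. The rule found 76 genes of the 31831 in the table, 17551 of them protein-coding, and used no measured value. They were 4 with an HSF symbol, 3 of the HSP90 family, 15 of the HSP70 and HSP110 family, the 2 mitochondrial chaperonin genes, 8 small heat shock protein genes, 4 DNAJA, 11 DNAJB and 29 DNAJC genes. The rule reads symbols only, so it also took HSF2BP, which encodes a binding partner of HSF2 and no heat shock factor, and the readthrough genes HSPB2-C11orf52 and DNAJC25-GNG10, each of which joins a member to the next gene. The cells were HK-2, an established line of immortalised human kidney proximal tubule epithelium, which the study's methods describe as kept in medium with 30 mM glucose for 72 h. HG-NC cells carried an empty lentiviral vector, called a control plasmid in the labels, and HG-OE cells a lentiviral vector for overexpression of hnRNP-F, an RNA-binding protein that acts in splicing. The methods speak of parallel wells and biological replicates and cite 1 gene identifier for both the human and the mouse construct, so the species of the coding sequence is not settled by the sources used here. Where wells were of 1 culture, the p-values measure the spread between wells. Poly(A) RNA of 3 libraries per group was sequenced, both groups had high glucose, and cultures with mannitol were not analysed here.

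Cells meet unfolded protein with chaperones that bind exposed hydrophobic stretches. HSP70 proteins do this in a cycle driven by ATP, J-domain proteins (DNAJA, DNAJB and DNAJC) bring the client and start ATP hydrolysis, and nucleotide exchange factors, HSP110 among them, release it. HSP90 takes over late-folding clients such as kinases and steroid receptors, small heat shock proteins hold unfolded protein without ATP, and the chaperonin of mitochondria folds protein inside a closed barrel. On heat or proteotoxic stress HSF1 binds heat shock elements, arrays of inverted GAA units, and raises the cytosolic inducible members, while the chaperones of the endoplasmic reticulum (ER) follow the unfolded protein response. In the kidney tubule, heat shock proteins are known for their induction after ischaemia and toxic injury.

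Each library held between 25507595 and 29444841 counted reads. HNRNPF itself rose in HG-OE, from 311 ± 7.22 CPM in HG-NC to 435 ± 15.1 in HG-OE (log2 fold change 0.48, SE 0.0388, edgeR adjusted p = 2.80e-07, n = 3), a 1.40-fold rise, where CPM is the read count scaled to library size. The line's PAX8, a renal lineage factor, was counted in every library at 11953 to 18291 reads and the keratin genes KRT8 and KRT18 at 5216 to 28781, while the differentiated proximal tubule genes LRP2 and AQP1 had 0 to 17 reads. Of 16 epithelial and tubule markers 12 were tested, and 4 of these were not called. KRT8, VIM, KRT18, KRT7 and CDH2 were higher in HG-OE (log2 fold change 1.35, 0.89, 0.76, 0.38 and 0.25). Without HG-OE replicate 3 these values were 1.11, 0.86, 0.44, 0.25 and 0.28. PAX8, KRT19 and EPCAM were lower (-0.51, -0.55 and -0.56), and at -0.45, -0.70 and -0.63 without that library. HG-OE replicate 3 stood apart. The epithelial CDH1 had 384 reads there and 2 to 10 in each other library. The squamous epithelium list (8 genes) summed to 56.5 CPM there and to between 0.275 and 0.465 CPM in the other 5 libraries, and the liver list (12 genes, SERPINA1 the main one in every library) to 724 CPM against 266 to 463. ALB had 4359 reads in HG-OE replicate 3, 78 in HG-NC replicate 3 and 0 to 4 in the other 4. Among markers of other cells, the immune PTPRC and CD3E and the endothelial CDH5 had 0 to 3 reads and PECAM1 3 to 16. CD14 (78 to 428 reads), VWF (6 to 33) and the fibroblast PDGFRB (8 to 65) were higher in HG-OE (log2 fold change 1.41, 1.73 and 2.25) and CD68 (34 to 65) was lower (-0.67). CD14 had 428 of these reads in HG-OE replicate 3. Without that library CD14 was at 0.61, VWF at 2.06, PDGFRB at 2.30 and CD68 at -0.69. COL1A1 had 289 to 367 reads and was not called, COL1A2 had 141 in HG-OE replicate 3 and 0 elsewhere, and COL3A1 and PDGFRA had 0 to 10. Results are therefore also given without HG-OE replicate 3, and whether its other transcripts bear on a result was not tested beyond this.

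Of the 76 members, 68 passed the filter on low counts. Between HG-OE and HG-NC, 27 of these were higher and 24 lower at an adjusted p under 0.05 in edgeR's quasi-likelihood test, and 17 were not called. Among all 17142 genes tested 51.8% were called, 25.9% in each direction, and among the 12365 genes with a mean of at least 100 reads 61.9% were, beside 49 of the 63 such members. The members' share is thus read against a comparison in which most well-counted genes were called. The median log2 fold change over the members was 0.076, and over all genes 0.011. At least 2-fold changes were all rises: 6 members were higher by that much and 0 lower, where 5.82% of all genes changed by as much, 3.69% higher and 2.13% lower. In 53 of the 68 members the groups did not overlap, 30 with HG-OE above and 23 below, beside 59.0% of all genes, 29.6% above and 29.5% below. An exact two-sided permutation test of a single member over 3 against 3 libraries cannot go below p = 0.1, and each of these 53 had that p. Many of the calls were small, with 22 of the 51 at a log2 fold change within 0.3 of 0. In RNA of whole cultures, fewer cells that express a gene and less of its RNA per cell cannot be told apart. Without HG-OE replicate 3, where 53.9% of all genes were called, 31 members were higher, 23 lower and the same number, 6, at least 2-fold higher. DNAJC12 was the only one of the 51 to lose its call then (log2 fold change -0.26, edgeR adjusted p = 0.0510).

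**Figure D1:**
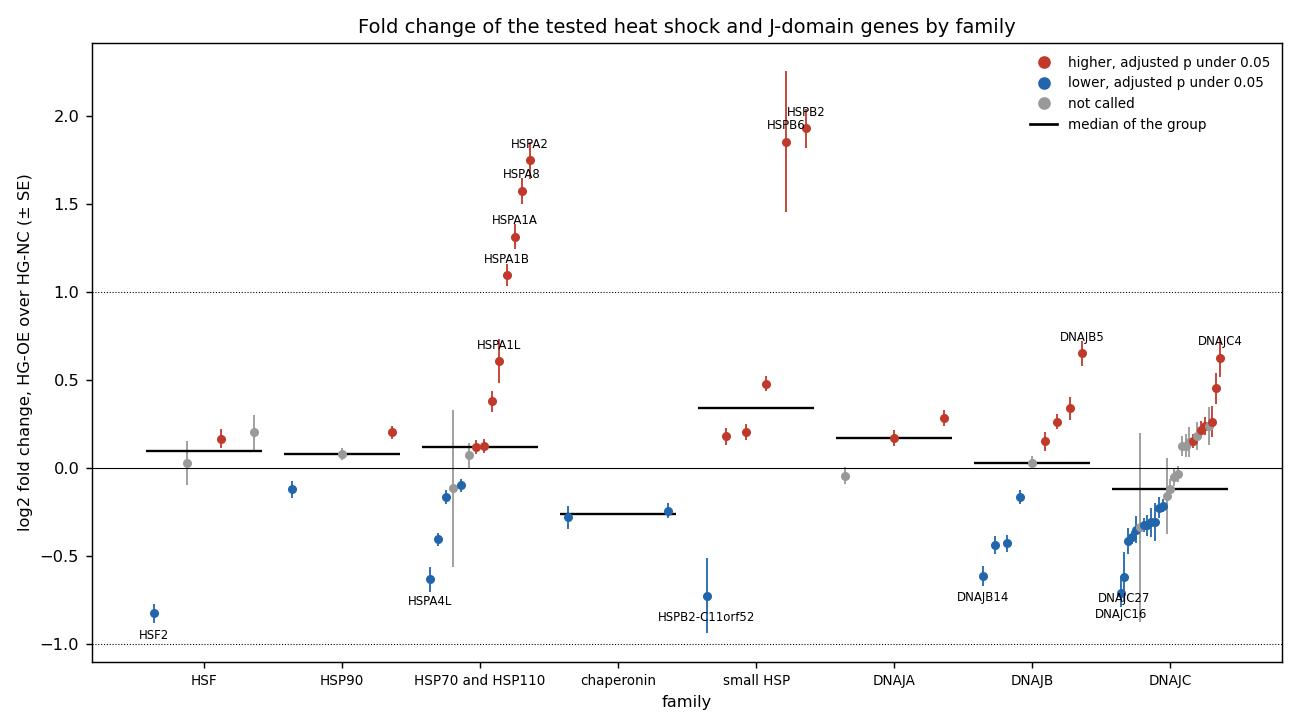
Log2 fold change of HG-OE over HG-NC with its SE for the 68 tested members, 1 point a gene, grouped by family, red where higher and blue where lower at an edgeR adjusted p under 0.05, with the median of each family as a bar and 2-fold changes as dotted lines. The 6 genes above the upper dotted line are HSPB2, HSPB6, HSPA2, HSPA8, HSPA1A and HSPA1B, and no gene lies below the lower one.

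The heat shock factors did not move as a group. HSF1, the main factor of the heat shock response, had 1924, 2227 and 2462 reads across HG-NC and 2626, 2775 and 2654 across HG-OE. It rose by little (log2 fold change 0.17, SE 0.0535, edgeR adjusted p = 0.0178) and lost its call in 6 of 14 other fits, with adjusted p from 0.0542 to 0.143. Over its chromosomal neighbourhood the direction is lost: less the median of the tested genes within 10 Mb (0.22) its value was -0.055. HSF2 (chr6:122399551-122433119), a factor that pairs with HSF1 and acts in development and proteasome stress, was counted with 1605, 1641 and 1792 reads across HG-NC (replicates 1, 2 and 3 in turn) and 1006, 1093 and 986 across HG-OE. All 3 HG-OE libraries lay far below the HG-NC libraries. Its level fell from 62.6 ± 1.79 CPM in HG-NC to 35.2 ± 2.03 in HG-OE (log2 fold change -0.83, SE 0.0545, edgeR adjusted p = 5.12e-08), 1.77-fold, the largest fall among the members, and was at -0.43 less the median of its neighbours. HSF4, the factor of lens development, (log2 fold change 0.20, edgeR adjusted p = 0.0997) and HSF2BP (log2 fold change 0.029, edgeR adjusted p = 0.864) were not called.

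The cytosolic HSP70 genes held 4 of the 6 rises of at least 2-fold. HSPA8 (chr11:123057489-123063230 on GRCh38, minus strand) encodes HSC70, the constitutive HSP70 that also strips clathrin from vesicles and feeds clients to autophagy. It had 8774, 8795 and 9230 reads across HG-NC (replicates 1, 2 and 3 in turn) and 25163, 28704 and 33129 across HG-OE. Every HG-OE library held clearly more reads than every HG-NC library, and HG-OE replicate 1 was the lowest and replicate 3 the highest of its group. The mean rose 2.98-fold, from 333 ± 10.4 CPM in HG-NC to 993 ± 131 in HG-OE (log2 fold change 1.58, SE 0.0722, edgeR adjusted p = 1.86e-09), and without HG-OE replicate 3 the log2 fold change was 1.47. Per length, HSPA8 went from the 8th to the 3rd place among the members, at 61.5 ± 1.84 FPKM in HG-NC against 181 ± 23.7 in HG-OE, where FPKM is fragments per kilobase of transcript, scaled to library size. Its part in the summed FPKM of the HSP70 and HSP110 family was 16.9 ± 0.177% in HG-NC and 36.3 ± 2.59% in HG-OE (SD, n = 3).

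HSPA1A (chr6:31815543-31817946) and HSPA1B (chr6:31827738-31830254), the stress-inducible HSP70 genes, lie close to each other and encode the same protein. HSPA1A had 750, 764 and 819 reads across HG-NC and 1846, 2236 and 2236 across HG-OE, and HSPA1B 624, 620 and 623 reads across HG-NC and 1346, 1450 and 1548 across HG-OE. In both genes all HG-OE libraries lay above all HG-NC libraries. HSPA1A rose 2.49-fold (log2 fold change 1.32, SE 0.0704, edgeR adjusted p = 7.83e-09) and HSPA1B 2.14-fold (log2 fold change 1.10, SE 0.0631, edgeR adjusted p = 1.44e-08). The split between them is uncertain, because 69.6% of the 150-base windows of the HSPA1A transcript also occur in that of HSPA1B and only uniquely mapped reads were counted. HSPA1B further overlaps, over 1421 bases of the same strand, a long noncoding transcript with 6807, 7076 and 7179 reads across HG-NC and 6679, 6292 and 5977 across HG-OE, which itself fell (log2 fold change -0.27, edgeR adjusted p = 1.92e-04). HSPA1L, a testis-enriched relative that shares none of those windows with HSPA1A, rose too (log2 fold change 0.61, edgeR adjusted p = 0.00101), at 4.81 ± 0.553 CPM in HG-NC against 7.32 ± 0.340 in HG-OE. HSPA6, the strictly inducible HSP70 that is silent in most unstressed cells, did not pass the filter, with 5 to 12 reads in each library and no separation of the groups. A list of cytosolic stress chaperones, in which the constitutive HSPA8 was set beside the inducible genes, had 8 tested members. HSPA8, HSPA1A, HSPA1B, HSPB1, DNAJA1 and DNAJB1 rose and HSPH1 and HSP90AA1 fell, with a median log2 fold change of 0.38, and of 0.28 over the 7 without HSPA8.

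HSPA2 (chr14:64535905-64546173), an HSP70 best known from spermatogenesis, was the strongest riser of the family on the log2 scale. It had 148, 177 and 190 reads across HG-NC and 553, 629 and 699 across HG-OE, with all 3 HG-OE libraries above those of HG-NC, and rose 3.36-fold (log2 fold change 1.75, SE 0.103, edgeR adjusted p = 1.80e-08). Its level per length stayed low, at 1.04 ± 0.0874 FPKM in HG-NC against 3.46 ± 0.380 in HG-OE. HSPA12A, a distant and atypical member of the family, rose less (log2 fold change 0.38, edgeR adjusted p = 9.40e-05). Of the HSP110 genes, whose products release nucleotide from HSP70, 2 fell. HSPH1 had 6083, 6449 and 6632 reads across HG-NC and 5180, 5241 and 5295 across HG-OE, did not overlap between groups and fell 1.33-fold (log2 fold change -0.41, SE 0.0355, edgeR adjusted p = 6.03e-07). HSPA4L fell (log2 fold change -0.63, edgeR adjusted p = 5.18e-06), whereas HSPA4 was slightly higher (log2 fold change 0.12, edgeR adjusted p = 0.0171), a call lost in 5 of 14 other fits (adjusted p 0.0506 to 0.0791), and turned to -0.19 less the median of its neighbours. HSPA14, a ribosome-associated HSP70 (log2 fold change 0.072, edgeR adjusted p = 0.438), and HSPA12B, with a mean of 10.3 reads (log2 fold change -0.11, edgeR adjusted p = 0.847), were not called.

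**Figure D2:**
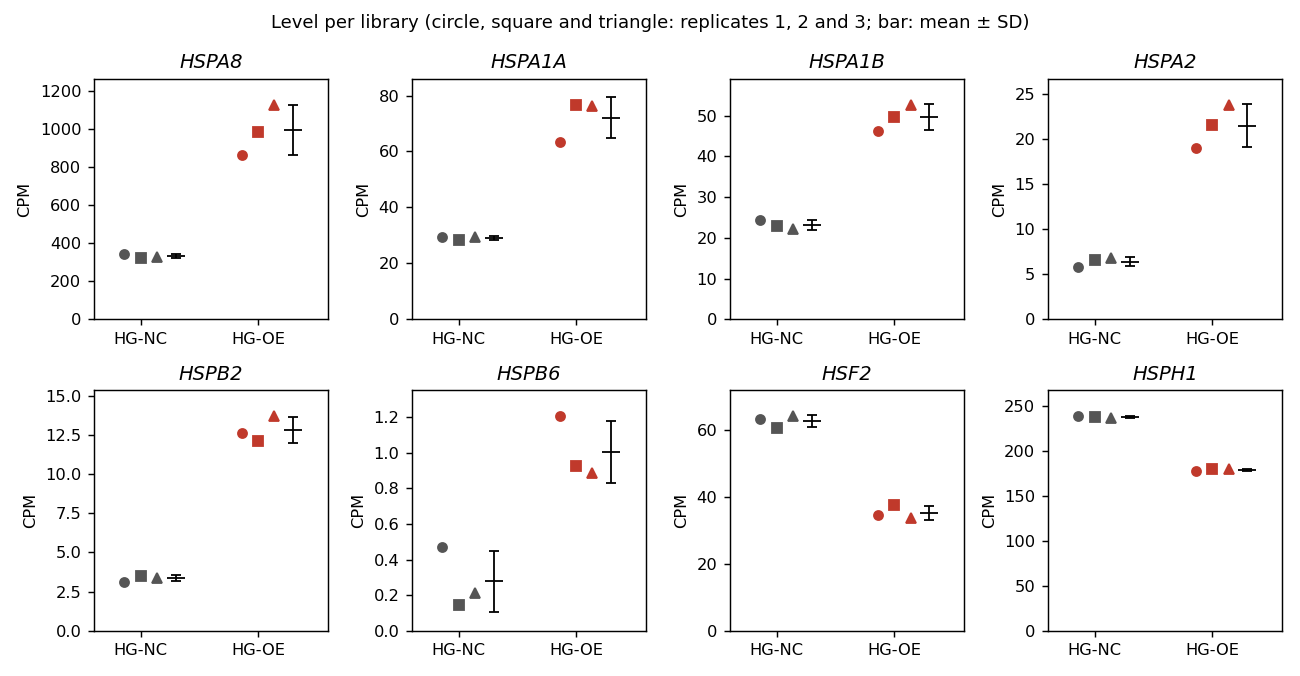
Read counts scaled to library size (CPM, linear axis from 0) of the 6 members with at least a 2-fold rise and of HSF2 and HSPH1 in each of the 6 libraries, with replicates 1, 2 and 3 as circle, square and triangle and the mean ± SD beside them. In all 8 genes the groups do not overlap, and HSPB6 stays at or under 1.21 CPM.

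The promoters show whether members that rose and members that fell carry the letters of a heat shock element. The 250 bases before each RefSeq start on GRCh38.p14 were searched for inverted pairs of GAA units, GAANNTTC and TTCNNGAA, each of which reads the same on both strands, and for runs of 3 units, GAA-NN-TTC-NN-GAA or its complement TTC-NN-GAA-NN-TTC, which contain both pairs. RefSeq starts matched 65 of the 76 members by symbol, with 86 starts, leaving DNAJC1, DNAJC22, DNAJC24, DNAJC5B, HSF1, HSF2BP, HSPA12B, HSPA14, HSPB11, HSPB2 and HSPB2-C11orf52. One of the pairs stood in 22.1% of these promoters and in 10.0% of all 22198 promoters of the table, and a run of 3 units in 6.98% and 0.365%. By member, 9 of 23 higher, 5 of 21 lower, 1 of 13 not called and 4 of 8 not tested genes held a pair. Among all 15842 genes with such starts 13.0% held a pair and 0.499% a run of 3 units. The order pair TTCNNGAA alone stood in 2 of the 23 higher and 5 of the 21 lower genes. A run of 3 units stood in 1 of the 23 higher, 3 of the 21 lower, 1 of the 13 not called and 1 of the 8 not tested genes. HSPA1A and HSPA1L face away from each other and share 1 such place, which counts for both among the higher genes. The HSPA8, HSPA1A, HSPA1B, HSPB1 and DNAJB1 windows are from genes that rose, those of HSPD1, HSP90AA1 and DNAJB6 from genes that fell, and that of HSP90AB1 from one that was not called. They are a selection, and capitals mark the matched units and the letters between them. The windows of HSPA1A, HSPA1B, HSPB1 and DNAJB1, all from genes that rose, hold 1 pair each, and the others at least 3 units. Among the matches not shown are those of DNAJA1, HSPA1L, HSPB6 and HSPB8, which rose, and of DNAJB4 and HSPA4L, which fell. A run of 3 units of HSPA6, which was not tested, is not shown either.
HSPA8, chr11:123062174-123062196, minus strand: gccccTTCTGGAAGGTTCtaaga
HSPA8, chr11:123062349-123062371, minus strand: agcttGAAAGTTCCAGAAcgctg
HSPA1A, chr6:31815432-31815449, plus strand: ccctgGAATATTCccgac
HSPA1B, chr6:31827628-31827645, plus strand: ccctgGAATATTCccgac
HSPB1, chr7:76302486-76302503, plus strand: cgagaGAAGGTTCcagat
DNAJB1, chr19:14518432-14518449, minus strand: ctctgGAAGCTTCcgccg
HSPD1, chr2:197500063-197500090, minus strand: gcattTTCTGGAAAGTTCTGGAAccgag
HSP90AA1, chr14:102087115-102087137, minus strand: ggttcTTCCGGAAGGTTCgggag
HSP90AB1, chr6:44247773-44247795, plus strand: gcaggTTCTGGAAGATTCatggg
DNAJB6, chr7:157336868-157336890, plus strand: gccgaGAACCTTCGCGAAggtgg

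HSPA1A and HSPA1B carry the same letters in this window. HSPD1, with the longest run, was lower, and HSPA8, with a run of 3 units at both places, was the most counted of the 2-fold risers. HSP90AB1, which was not called, likewise held a further run of 3 units, at chr6:44247826-44247848 and not shown. A match of letters is a description of the window and not a bound site.

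The cytosolic HSP90 genes were among the most abundant members and changed little. HSP90AB1, the constitutive cytosolic form, had the highest level per length of all members at 404 ± 2.05 FPKM in HG-NC against 422 ± 11.7 in HG-OE. Its difference did not pass the test (log2 fold change 0.079, SE 0.0342, edgeR adjusted p = 0.0675), though it did without HG-OE replicate 1 (0.11, edgeR adjusted p = 0.0382). HSP90AA1, the inducible cytosolic form, had 27108, 28449 and 27512 reads across HG-NC and 26372, 26791 and 29925 across HG-OE. Its groups overlapped as CPM, and its fall was small (log2 fold change -0.12, SE 0.0471, edgeR adjusted p = 0.0441) and lost its call in 9 of 14 other fits, with adjusted p from 0.0550 to 0.205. HSP90B1, the ER form GRP94, rose slightly (log2 fold change 0.20, edgeR adjusted p = 3.35e-04), from 764 ± 19.8 CPM in HG-NC to 878 ± 22.2 in HG-OE.

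Among the small heat shock proteins 5 of the 6 tested were higher, and the family's median log2 fold change was 0.34. HSPB1 (HSP27), which guards actin and holds unfolded protein, was the most abundant of them and the 2nd of all members per length in both groups. It had 8466, 9627 and 10000 reads across HG-NC and 14507, 14414 and 13573 across HG-OE, with all HG-OE libraries above, and rose 1.39-fold (log2 fold change 0.48, SE 0.0425, edgeR adjusted p = 7.15e-07). HSPB8, which acts with BAG3 in selective autophagy (log2 fold change 0.18, edgeR adjusted p = 0.00699), and HSPB11, a subunit of the intraflagellar transport complex rather than a classical chaperone (log2 fold change 0.20, edgeR adjusted p = 0.00277), rose by less.

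HSPB2 (chr11:111912734-111914093), a small heat shock protein known from muscle, had 80, 95 and 95 reads across HG-NC and 366, 353 and 402 across HG-OE. The HG-OE libraries lay close together and far above the control libraries, and the rise was 3.82-fold (log2 fold change 1.93, SE 0.111, edgeR adjusted p = 1.40e-08), the largest of all members. The gene overlaps CRYAB, itself a small heat shock protein gene (αB-crystallin) without an HSPB symbol, by 1360 bases on the opposite strand. CRYAB had 935, 989 and 1058 reads across HG-NC and 1879, 1795 and 1760 across HG-OE and rose as well (log2 fold change 0.75, edgeR adjusted p = 6.18e-08). The libraries kept the strand, but the methods do not say whether the counting used it, so reads of CRYAB within the HSPB2 count cannot be told apart. The readthrough gene HSPB2-C11orf52, which shares 1358 bases with HSPB2, was lower (78, 70 and 115 reads across HG-NC and 64, 62 and 46 across HG-OE, log2 fold change -0.73, edgeR adjusted p = 0.0117). HSPB6 (HSP20, chr19:35754566-35758079), which is regulated by phosphorylation in smooth muscle, had 12, 4 and 6 reads across HG-NC and 35, 27 and 26 across HG-OE. It rose (log2 fold change 1.86, SE 0.399, edgeR adjusted p = 0.00146) on few reads and its SE was the largest of the called members.

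The mitochondrial chaperonin genes fell together. HSPD1 (HSP60) had 20248, 20539 and 20742 reads across HG-NC and 18302, 18421 and 19884 across HG-OE and fell 1.18-fold (log2 fold change -0.24, SE 0.0409, edgeR adjusted p = 2.21e-04). HSPE1 (HSP10), its lid, had 6541, 6235 and 6524 reads across HG-NC and 5282, 5526 and 6493 across HG-OE and fell 1.21-fold (log2 fold change -0.28, SE 0.0653, edgeR adjusted p = 0.00259). As CPM all HG-OE libraries lay below all HG-NC libraries in both genes. They are neighbours that share a promoter region on chromosome 2, overlap by 3310 bases on opposite strands, and have 78 tested genes within 10 Mb whose median log2 fold change was -0.44. Less that median, both turned, HSPD1 to 0.20 and HSPE1 to 0.16, so their direction holds against all genes and not against those around them. HSPA9 (mortalin), the HSP70 of the mitochondrial matrix and import motor, was slightly higher (log2 fold change 0.12, edgeR adjusted p = 0.0181), lost its call in 7 of 14 other fits (adjusted p 0.0646 to 0.114) and turned to -0.16 in the same way. DNAJC19, a J-protein of the import motor, fell (log2 fold change -0.23, edgeR adjusted p = 0.00591), and DNAJA3, the matrix J-protein (log2 fold change -0.044, edgeR adjusted p = 0.469), and DNAJC11, of the cristae-organising complex (log2 fold change -0.034, edgeR adjusted p = 0.540), were not called. The mitochondrial list thus had 1 gene higher, 3 lower and 2 not called of 6 tested, with a median log2 fold change of -0.14, which was 0.012 less the medians of the neighbours. DNAJC30, a protein of complex I maintenance described below, was not in this list and rose (log2 fold change 0.45).

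In a list of 8 members of the ER lumen and membrane, 2 were higher and 5 lower, with a median log2 fold change of -0.13. The list did not hold DNAJB14, a membrane J-protein of ER-associated degradation, or its partner DNAJB12, both given below. Less the medians of the genes around each, that median was 0.15, so the list's direction rests on the comparison with all genes. HSPA5 (BiP), the ER HSP70 and the sensor-holding chaperone of the unfolded protein response, had 25624, 26605 and 26752 reads across HG-NC and 26270, 26011 and 27965 across HG-OE. It was lower by little (log2 fold change -0.098, SE 0.0372, edgeR adjusted p = 0.0396), from 135 ± 3.00 FPKM in HG-NC to 124 ± 4.59 in HG-OE, and lost its call in 9 of 14 other fits (adjusted p 0.0565 to 0.180). DNAJB9, the BiP partner that represses the sensor IRE1, rose (log2 fold change 0.34, edgeR adjusted p = 6.01e-04), and so did HSP90B1, given above. DNAJC3 (p58IPK), which inhibits the kinase PERK, fell (log2 fold change -0.33, edgeR adjusted p = 4.03e-04), as did DNAJC1 (log2 fold change -0.42, edgeR adjusted p = 3.54e-04), DNAJC10, a disulfide reductase (log2 fold change -0.21, edgeR adjusted p = 4.05e-04), and HSPA13 (log2 fold change -0.16, edgeR adjusted p = 0.00470). DNAJC10 and HSPA13 turned to 0.17 and 0.16 once the median of their neighbours was taken off. DNAJB11, a further BiP partner, was not called (log2 fold change 0.031, edgeR adjusted p = 0.517).

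Among the cytosolic J-proteins that hand clients to HSP70, DNAJA1 was the most abundant, at 57.3 ± 2.59 FPKM in HG-NC against 69.0 ± 3.13 in HG-OE, and rose (log2 fold change 0.28, SE 0.0469, edgeR adjusted p = 1.85e-04). DNAJA2 rose less (log2 fold change 0.17, edgeR adjusted p = 0.00515). DNAJB1 (HSP40), the partner of HSP70 in disaggregation, had 2896, 3192 and 3088 reads across HG-NC and 3855, 3994 and 4129 across HG-OE. Its groups did not overlap, and it rose 1.20-fold (log2 fold change 0.26, SE 0.0419, edgeR adjusted p = 1.32e-04), less than HSPA1A or HSPA8. DNAJB5, a close relative of DNAJB1, had 367, 420 and 439 reads across HG-NC and 723, 695 and 675 across HG-OE and rose most of the DNAJB genes (log2 fold change 0.65, SE 0.0709, edgeR adjusted p = 4.53e-06). DNAJB4, a further close relative, fell (log2 fold change -0.44, edgeR adjusted p = 1.28e-05).

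Several DNAJB genes fell. DNAJB14, a membrane J-protein of ER-associated degradation, had 1123, 1132 and 1254 reads across HG-NC and 878, 784 and 830 across HG-OE and fell (log2 fold change -0.61, SE 0.0585, edgeR adjusted p = 1.40e-06). DNAJB2, a neuronal form that sorts clients to the proteasome (log2 fold change -0.43, edgeR adjusted p = 4.83e-06), and DNAJB6, which keeps polyglutamine protein from aggregating (log2 fold change -0.17, edgeR adjusted p = 0.00291), were lower, and DNAJB12, the partner of DNAJB14, was slightly higher (log2 fold change 0.15, edgeR adjusted p = 0.0300). In all, 4 of the 9 tested DNAJB genes rose and 4 fell.

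Of the 27 tested DNAJC genes, whose J-domain sits in proteins of many kinds, 6 were higher, 11 lower and 10 not called. The called share was 63.0%, beside 51.8% of all genes tested, 25.9% in each direction, and 61.9% of those with a mean of at least 100 reads. Their median log2 fold change was -0.12, or -0.093 less the medians of the neighbours. The largest fall was that of DNAJC16, a J-protein with a thioredoxin fold, with 619, 613 and 698 reads across HG-NC and 470, 395 and 417 across HG-OE (log2 fold change -0.71, SE 0.0813, edgeR adjusted p = 7.26e-06). DNAJC27, a small GTPase with a J-domain, fell on fewer reads (149, 131 and 151 reads across HG-NC and 105, 93 and 107 across HG-OE, log2 fold change -0.62, edgeR adjusted p = 0.00208). DNAJC7, which binds HSP70 and HSP90 through TPR repeats, fell as well (log2 fold change -0.33, edgeR adjusted p = 1.46e-05). The largest rises were those of DNAJC4 (144, 163 and 179 reads across HG-NC and 295, 270 and 250 across HG-OE, log2 fold change 0.63, edgeR adjusted p = 3.33e-04) and DNAJC30, a protein of complex I maintenance (log2 fold change 0.45, edgeR adjusted p = 5.97e-04). DNAJC25 (log2 fold change 0.13, edgeR adjusted p = 0.121) and DNAJC25-GNG10 (log2 fold change -0.051, edgeR adjusted p = 0.436) share exons, so that their counts are uncertain, and neither was called.

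By role, the list for RNA processing and the ribosome, in which the histone chaperone DNAJC9 was also placed, split. DNAJC8, a splicing-associated protein and the most abundant DNAJC gene at 74.0 ± 1.78 FPKM in HG-NC against 55.7 ± 0.710 in HG-OE, had 6263, 6355 and 6618 reads across HG-NC and 5189, 5317 and 5404 across HG-OE. All 3 HG-OE libraries lay below HG-NC, and it fell 1.31-fold (log2 fold change -0.39, SE 0.0379, edgeR adjusted p = 1.46e-06). DNAJC17, likewise tied to splicing, fell (log2 fold change -0.35, edgeR adjusted p = 0.00181). DNAJC9, a histone chaperone (log2 fold change 0.15, edgeR adjusted p = 0.00443), and DNAJC21, of large ribosomal subunit maturation (log2 fold change 0.24, edgeR adjusted p = 0.00161), were higher, and DNAJC2, of the ribosome-associated complex, was not called (log2 fold change -0.12, edgeR adjusted p = 0.0798) except without HG-OE replicate 1 (-0.16) or with the replicate numbers as a block (-0.12, edgeR adjusted p = 0.0467). The median of these 5 genes, DNAJC9 included, was -0.12. Of the 4 vesicle genes, 1 was higher, 1 lower and 2 not called. DNAJC27, given above, fell (log2 fold change -0.62, edgeR adjusted p = 0.00208). DNAJC5, the synaptic vesicle cysteine string protein, was higher (log2 fold change 0.22, edgeR adjusted p = 0.00212), while DNAJC6 (auxilin), the clathrin uncoating partner of HSPA8, (log2 fold change 0.24, edgeR adjusted p = 0.0778) and the endosomal DNAJC13 (log2 fold change 0.12, edgeR adjusted p = 0.0766) did not pass the test. With the replicate block both passed (edgeR adjusted p = 0.0476 and 0.0414), and without HG-OE replicate 3 both did too, DNAJC6 at 0.35 and DNAJC13 at 0.14 on the log2 scale.

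Per length, the members' levels ran over several orders of magnitude. HSP90AB1, HSPB1, HSP90AA1, HSPA5, HSPE1 and HSPD1 led in HG-NC, in that order, and the first 2 led in HG-OE as well, followed by HSPA8. In HG-NC the ranges of HSPB1 (183 to 198 FPKM) and HSP90AA1 (174 to 187 FPKM) overlapped, and those of the other neighbours in this order did not. The summed FPKM of all members other than HSPA8 was 1867 ± 21.6 in HG-NC and 1925 ± 27.1 in HG-OE (SD, n = 3), while HSPA8 alone added 61.5 and 181. HSPA8 thus made up 3.19 ± 0.0620% of the summed level of the control libraries and 8.60 ± 0.918% of that in HG-OE. The share of HSP90AA1 was 9.41 ± 0.299% and 7.83 ± 0.328%.

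**Figure D3:**
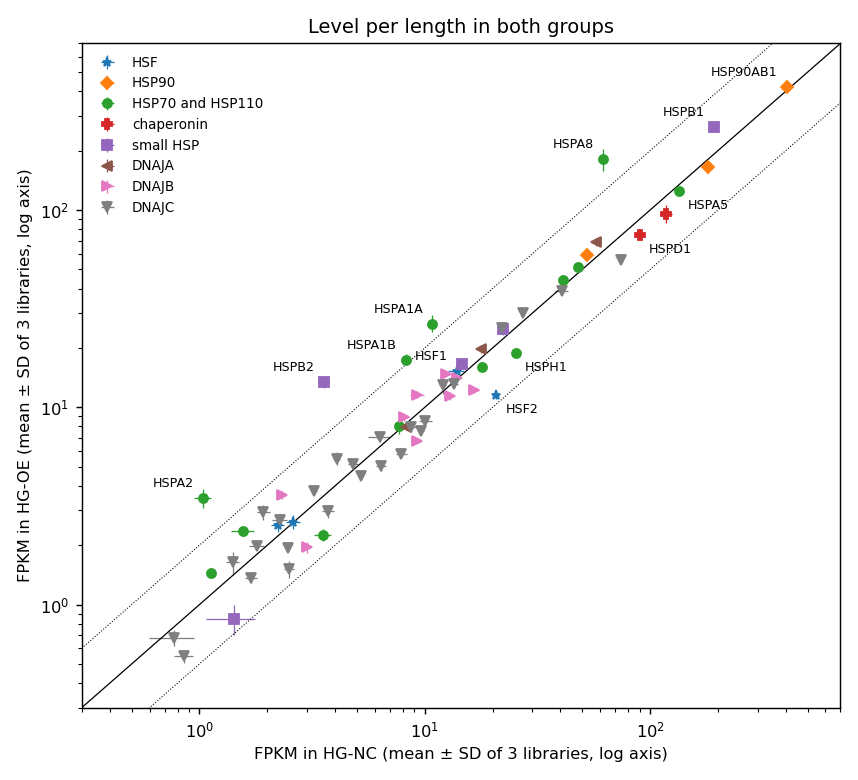
Mean FPKM with SD of 3 libraries in HG-NC (x axis) and HG-OE (y axis), both log axes, for members of at least 0.3 FPKM in both groups, by family, with equal levels as the solid line and 2-fold differences as dotted lines. HSPA8, HSPA1A, HSPA1B, HSPA2 and HSPB2 lie above the upper dotted line, and HSP90AB1 lies near the solid line at the top.

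The 8 members that did not pass the filter were HSPA6, HSPB7, HSPB9, DNAJA4, DNAJB7, DNAJB13, DNAJC5G and DNAJC15. DNAJA4, a heat-inducible J-protein, and DNAJC15, of the mitochondrial import motor, had 51 and 72 reads in HG-OE replicate 3 and 0 to 1 in each of the other 5 libraries. Both are thus values of 1 library, the one with liver and squamous transcripts. The other 5 apart from HSPA6 had at most 5 reads in any library.

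The partners of these chaperones were read from 6 lists. Shares called are read beside 51.8% of all genes tested and 61.9% of those with a mean of at least 100 reads. Of 16 HSP70 co-chaperones and exchange factors, 10 were higher and 3 lower (81.25% called). Their median log2 fold change was 0.19, the second highest of the lists. TTC1, a TPR adaptor of HSP70, had 1551, 1504 and 1599 reads across HG-NC and 2887, 3129 and 3197 across HG-OE and rose most (log2 fold change 0.86, SE 0.0508, edgeR adjusted p = 1.75e-08). SIL1, the exchange factor of BiP, rose from 31.1 ± 0.467 CPM in HG-NC to 48.0 ± 1.47 in HG-OE (log2 fold change 0.63, edgeR adjusted p = 3.07e-07), and BAG3, which joins HSP70 to HSPB8 and is itself heat-induced, rose less (log2 fold change 0.29, edgeR adjusted p = 9.24e-04). SGTB, a further TPR adaptor, fell most (log2 fold change -0.41, edgeR adjusted p = 5.14e-04). Of 12 ER folding genes, 9 were higher and 2 lower (91.7% called), with a median of 0.22, although HSPA5 was lower. SDF2L1, a partner of the BiP system (log2 fold change 0.75, edgeR adjusted p = 9.12e-06), MANF, a BiP-binding secreted factor (log2 fold change 0.67, edgeR adjusted p = 1.20e-07), and the lectin chaperone CANX (log2 fold change 0.50, edgeR adjusted p = 5.00e-08) rose, and the disulfide isomerase PDIA6 fell (log2 fold change -0.27, edgeR adjusted p = 2.00e-05). SIL1 and HYOU1 stand in both lists. Less the median of the genes around each, the medians of these lists were 0.054 and 0.089, CANX was at 0.033, MANF at 0.14, PDIA6 at 0.0093 and TTC1 at 0.53, and 12 of the 54 called genes of the 6 lists changed sign.

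The HSP90 co-chaperone list leaned the other way, with 5 of 24 higher and 11 lower and a median of -0.080, or -0.045 less the medians of the neighbours. Its called share was 66.7%, beside 51.8% of all genes tested and 61.9% of those with a mean of at least 100 reads. Among its 5 higher genes was TRAP1 (log2 fold change 0.22), which encodes the mitochondrial HSP90 and no co-chaperone. CDC37L1, a relative of the kinase co-chaperone CDC37, fell most (log2 fold change -0.62, edgeR adjusted p = 1.99e-04), and ITGB1BP2 rose most on few reads (15, 11 and 4 reads across HG-NC and 32, 29 and 34 across HG-OE, log2 fold change 1.52, edgeR adjusted p = 0.00488). Of 14 genes of the cytosolic chaperonin and prefoldin, 3 were higher and 5 lower (57.1% called, median 0.020). PFDN1 was at the top (log2 fold change 0.53, edgeR adjusted p = 4.76e-07) and CCT4 at the bottom (log2 fold change -0.43, edgeR adjusted p = 3.74e-07). Of 15 other genes that heat shock is known to induce, 5 were higher and 4 lower (60% called, median 0.0059). The largest rise there was that of CRYAB, described above, and CHORDC1, a co-chaperone of HSP90, fell (log2 fold change -0.51, edgeR adjusted p = 1.57e-06). Of 4 J-domain genes without a DNAJ symbol, GAK (auxilin's ubiquitous relative) was higher (log2 fold change 0.17, edgeR adjusted p = 0.0343), and SEC63 of the ER translocon fell most (log2 fold change -0.34, edgeR adjusted p = 1.18e-05), though it was at -0.035 less its neighbours' median. The rises of HSPA8, HSPA1A and HSPA1B were thus each larger than that of any gene in the heat shock list.

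**Figure D4:**
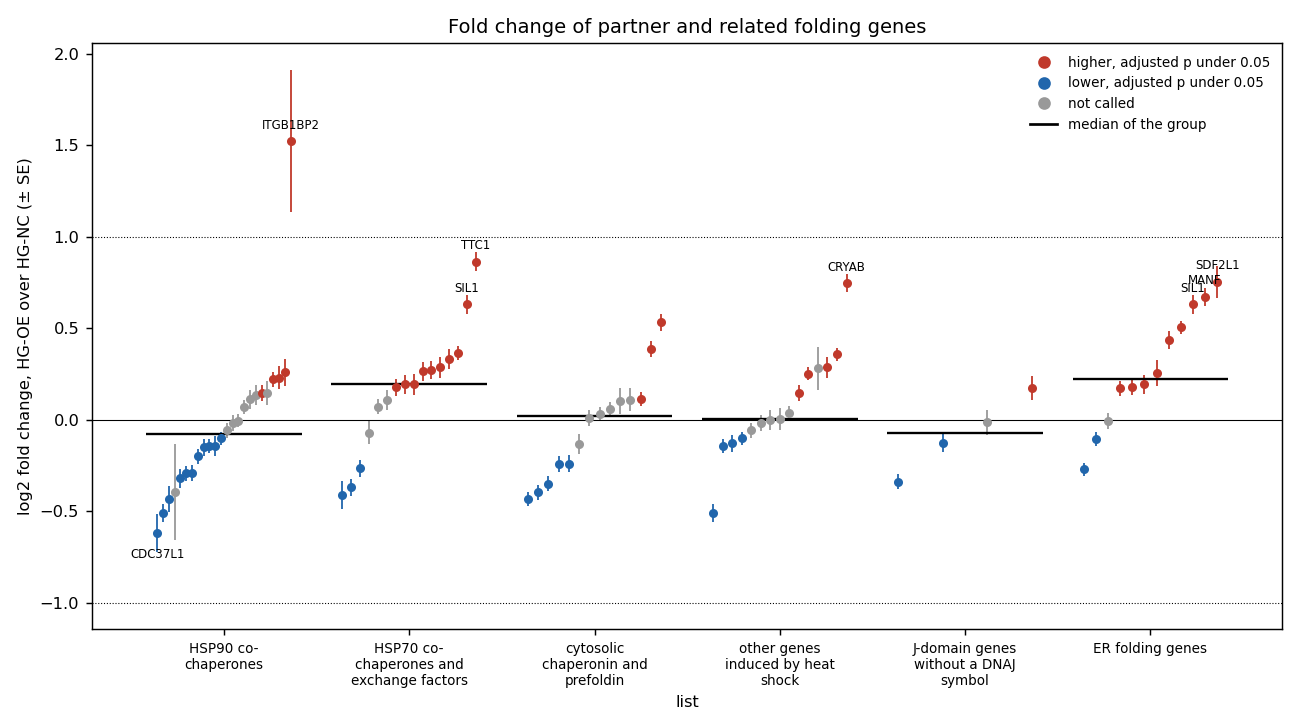
Log2 fold change of HG-OE over HG-NC with its SE for the tested genes of the 6 partner lists, drawn as for the families, with SIL1 and HYOU1 in 2 of the lists and some heat shock genes also in a co-chaperone list. The HSP70 co-chaperones and the ER folding genes have their medians above 0, at 0.19 and 0.22, and ITGB1BP2 is the 1 point above the 2-fold line.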

How the data were processed

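Total RNA of 6 HK-2 libraries was sequenced after poly(A) capture. The authors trimmed reads with FASTX-Toolkit, mapped them with HISAT2 (GRCh38) and counted per gene those with a unique place, and the deposited counts are whole numbers per gene. The deposited FPKM values were computed by the authors from the same reads. The annotation release, the counting program and its use of strand are not given in the sources used here, nor whether ComBat_seq, which the methods name, touched these values. Members and lists were chosen with earlier results of these data known.

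Counts of all genes were fitted with edgeR 4.0.16 (TMM scaling, filterByExpr by group, quasi-likelihood test, R 4.3.3), 3 HG-OE against 3 HG-NC libraries, with Benjamini-Hochberg adjustment over all 17142 genes tested and a threshold of 0.05. CPM used TMM-scaled library sizes (totals of 25507595 to 29444841 reads), and error values are SD over 3 libraries unless called SE. Families were described by counts of calls and medians, without a set test. The genes named were every member changed at least 2-fold, the 6 largest called rises and falls with a mean of at least 100 reads, the most counted of each family, the members of the HSF and HSP90 families and of the lists by site, and the extremes of each partner list. Others were named after their values were seen: HSPA12A, HSPA12B, HSPA14, HSPA1L, HSPA4, HSPB8, HSPB11, HSPB2-C11orf52, DNAJA2, DNAJB2, DNAJB12, DNAJC4, DNAJC7, DNAJC12, DNAJC14, DNAJC22, DNAJC25, DNAJC25-GNG10, DNAJC28, DNAJC5B, DNAJC30, SIL1, BAG3, MANF and CANX. Positions for neighbours within 10 Mb and overlaps came from GENCODE 44 (76 of 76 members matched), and promoters from RefSeq. DESeq2 1.42.0, limma 3.58.1 on log2(FPKM + 1) and log2(FPKM + 0.1), other filters and scaling, leaving out each library and a replicate block were alternatives. The fits were tested on simulated data.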

Additional observations from a re-analysis of the deposited data

How the results depend on the processing

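The number of members called higher ranged from 20 to 31 and lower from 19 to 24 over 14 other fits (27 and 24 as reported), and 38 of the 51 called members kept the call in each of them. The 6 members at least 2-fold higher were 8 without a filter on low counts, where DNAJA4 and DNAJC15, counted almost only in HG-OE replicate 3, were added. They were 5 with at least 10 reads in every library, which leaves HSPB6 untested, and 4 with limma on log2(FPKM + 1), where HSPB6 and HSPA1B stayed under 2-fold. The 2-fold lower count was 0 in every fit, DESeq2 and limma included, and 24 members were lower at the adjusted threshold alone. The median over the members was 0.055 with limma on log2(FPKM + 1), 0.036 with that and no filter, and between 0.070 and 0.109 with a library left out. Taking off the median of the neighbours gave 0.39 for HNRNPF. Of the 51 called members it turned 7, HSF1 to -0.055, HSPA4 to -0.19, HSPA9 to -0.16, HSPA13 to 0.16, DNAJC10 to 0.17, HSPD1 to 0.20, HSPE1 to 0.16. Among medians it turned that of the HSF genes to -0.0032, the chaperonin to 0.18, the ER list to 0.15, the mitochondrial list to 0.012, the cytosolic chaperonin and prefoldin to -0.018 and the other heat-induced genes to -0.067. The cause was not tested. Calls near the threshold were lost when a library was left out, with these log2 fold changes. Without HG-NC replicate 1 these were HSF1 (0.12), HSP90AA1 (-0.096), HSPA5 (-0.077), DNAJB12 (0.12) and DNAJC12 (-0.26), and without HG-NC replicate 2 HSF1 (0.17), HSP90AA1 (-0.11), HSPA4 (0.11), HSPA5 (-0.097) and HSPA9 (0.099). Without HG-NC replicate 3 they were HSPA4 (0.11), HSPA5 (-0.11), HSPA9 (0.12), HSPB2-C11orf52 (-0.52), DNAJC12 (-0.31) and DNAJC22 (0.20), and without HG-OE replicate 1 HSP90AA1 (-0.092), HSPA4 (0.11), HSPA5 (-0.090), HSPA9 (0.10), DNAJC12 (-0.29) and DNAJC22 (0.26). Without HG-OE replicate 2 HSF1 (0.14), HSP90AA1 (-0.099), HSPA5 (-0.079) and DNAJB12 (0.11) were lost. Calls gained with a library left out were DNAJC14 without HG-NC replicate 1 (0.28), and HSP90AB1 (0.11) and DNAJC2 (-0.16) without HG-OE replicate 1. Without HG-OE replicate 3 they were DNAJC6 (0.35), DNAJC13 (0.14), DNAJC14 (0.23) and DNAJC25 (0.16). Leaving out a library changed the sign of 7 members that were not called. These were DNAJC25-GNG10 (to 0.0079) and DNAJC28 (to 0.020) without HG-NC replicate 1, HSPA12B (to 0.22 without HG-NC replicate 3, 0.038 without HG-OE replicate 2 and 0.040 without HG-OE replicate 3), DNAJC5B (to 0.11 without HG-OE replicate 1), DNAJA3 between -0.067 and 4.56e-04, DNAJC11 between -0.055 and 7.40e-04 and HSF2BP between -0.031 and 0.093.

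Deviations of same-numbered libraries correlated at -0.027, 0.030 and -9.93e-04, and those of other numbers between -0.035 and 0.034. With 3 libraries a group and HG-OE replicate 3 standing apart, these values cannot settle whether replicate numbers pair the libraries. With a replicate block 30 members were higher and 23 lower, 6 by at least 2-fold, the median over the members was 0.074 and HNRNPF was at 0.48. HSP90AA1 (edgeR adjusted p = 0.0572) and HSPA5 (0.0565) lost their calls under it, and DNAJC2 (0.0467), DNAJC6 (0.0476), DNAJC13 (0.0414) and DNAJC14 (0.0259) gained one, and it changed no other call of the members. Precision is limited by 3 libraries a group and, for HSPB6, by few reads.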

Other observations

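Beside the protein-coding members, the table held 45 pseudogenes named after them. Their reads summed to 87, 105 and 90 across the HG-NC libraries and to 82, 89 and 100 across HG-OE, and no pseudogene had more than 26 reads in a library.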
